A study of Drosophila melanogaster with 24 samples.

Results

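A set of 60 transcripts was examined whose level in adult Drosophila heads differed between the lol (Lobe-less) mutant and the w[1118] control strain in both sexes, while the difference in whole bodies was small. They were chosen from 13873 transcripts with a value on all 24 arrays. For each transcript the mean of the 3 w[1118] arrays was subtracted from the mean of the 3 lol arrays in female heads, male heads, female whole bodies and male whole bodies. A transcript qualified if both body differences were under 0.5 log2 in size and both head differences had the same sign, which 6566 did. These were ranked by the smaller of the 2 head differences, and the first 60 were taken. Of them, 27 were higher and 33 were lower in lol heads. All values are log2 levels from one-colour arrays, so a difference of 1 is a change of 2-fold, and because the differences between the strains chose the transcripts, they are described here without a test.

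The 8 groups were lol and w[1118] flies, females and males, heads and whole bodies, with 3 arrays each, and the labels describe the 3 as grown in separate cultures. Both strains were kept at 23 °C on the same food and were collected on day 2 of adult life, and RNA came from 100 heads or 100 bodies per extraction. Heads had been sieved away from frozen carcasses. The labels name the mutant as lol without stating the allele or whether it was crossed into the w[1118] background, so differences between the strains that have nothing to do with the lol locus cannot be told apart from those that do.

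Lobe-less is a long noncoding RNA, a transcript that is not translated, and the title of the study places it in the shaping of the mushroom bodies. These paired centres of the insect brain are built by Kenyon cells, whose axons form lobes, and they are known for olfactory learning and memory. A sieved head holds the brain together with the eyes, antennae, mouthparts, cuticle, muscle and fat body, so mushroom body neurons give a small part of its RNA. A whole body contains the head as well as gut, flight muscle, fat body and gonads, so a transcript made in both the head and the trunk is measured there mostly from the trunk. In such bulk RNA, fewer cells of a type and less RNA per cell cannot be told apart.

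None of the 60 could be paired with a gene. The files carry FlyBase transcript IDs. The reference table of Drosophila genes (Release 6) held only 51 such IDs, 43 of them measured, and matched 0 of the 60. With so few IDs, the lack of a match says nothing about the members. They are therefore given by their rank and a few by their ID. No gene of the 8 marker lists (76 genes of the brain, the sense organs, immunity and the trunk) could be matched to a measured transcript either. The head and body labels were thus not checked against markers, and the level of the Lobe-less transcript itself is not analysed here. Replicate arrays correlated at 0.912 to 0.97 across transcripts in w[1118] male heads, at 0.933 to 0.986 in lol male heads and at no less than 0.974 in the remaining 6 groups. A total of 4 head arrays stood apart: w[1118] male head replicates 1 and 2, lol male head replicate 1 and lol female head replicate 1. A set of 178 transcripts was enriched in w[1118] bodies of both sexes, 1 of them among the 60. Without that 1, the set had a median of 10.26 to 10.93 on these 4 arrays, against 8.52 to 8.93 on the other head arrays.

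The differences of the 60 between the strains were of moderate size. They ran from 0.76 to 2.50 log2 in female heads and from 0.81 to 2.61 in male heads for the 27 higher transcripts, with medians of 1.05 and 1.16. For the 33 lower transcripts they ran from -2.61 to -0.76 and from -2.16 to -0.78, with medians of -1.10 and -1.11. In 26 of the 60 (11 higher and 15 lower) the difference was at least 1 log2 in both sexes. The last transcript taken stood at 0.76 in female and 1.14 in male heads, and the next one, left out, at -0.76 and -1.58, so the lower end of the list is a smooth edge. Over all transcripts the median size of the difference was 0.158 log2 in female heads and 0.19 in male heads.

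**Figure D1:**
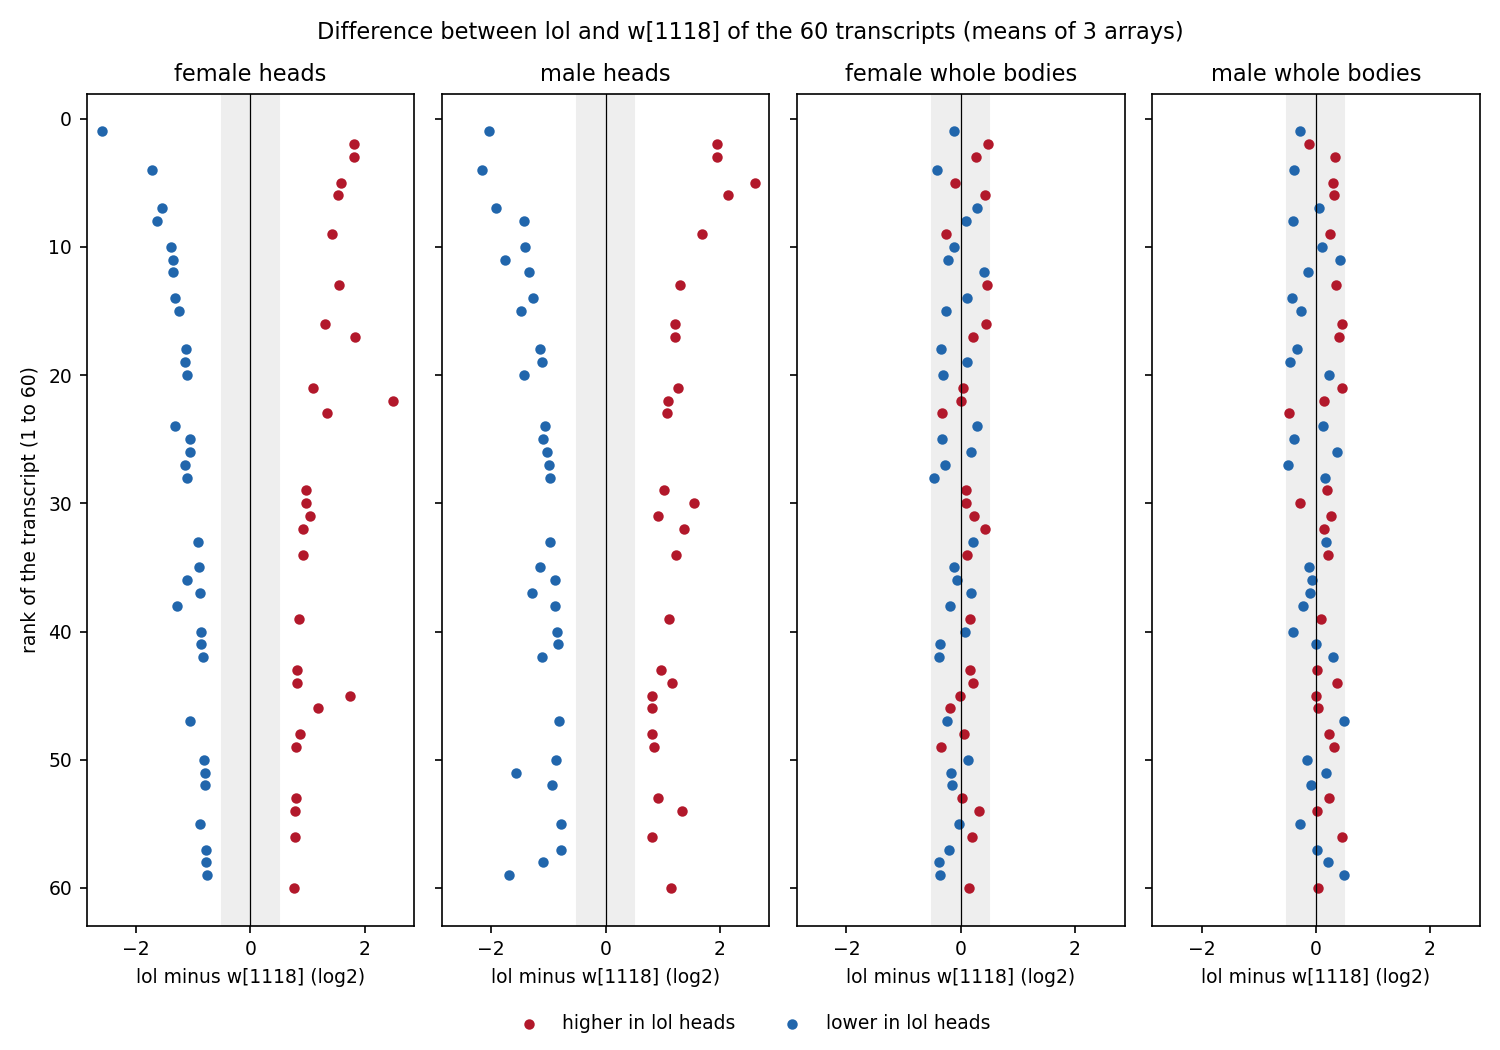
Difference between lol and w[1118] (log2, means of 3 arrays) of the 60 transcripts in order of their rank, in heads and whole bodies of each sex. Red points are the 27 transcripts higher and blue points the 33 lower in lol heads, and the grey band marks the limit of 0.5 log2 that the rule set for bodies.

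The highest ranked transcript of all was lower in lol heads. FBtr0074827, rank 1, stood at 10.85, 11.68 and 11.45 on the w[1118] female head arrays and at 8.99, 8.73 and 8.44 on those of lol. In male heads it stood at 10.66, 11.10 and 11.22 in w[1118] and at 8.95, 8.81 and 9.10 in lol. The strains did not overlap in heads of either sex, and the means differed 6.09-fold in females and 4.1-fold in males. In whole bodies both strains were high and close together, at 12.61 ± 0.17 and 12.49 ± 0.04 in females and at 11.40 ± 0.12 and 11.13 ± 0.07 in males (SD, n = 3). In male bodies the strains did not overlap either, with lol lower. Heads were below bodies in both strains, and the gap was wider in lol.

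A second lower transcript, FBtr0084751 of rank 4, had the opposite distribution between tissues. In female heads its level was 10.48, 10.15 and 9.84 in w[1118] and 9.13, 8.30 and 7.85 in lol, and in male heads it was 10.51, 10.35 and 10.88 against 8.78, 8.16 and 8.33. No lol head array reached the lowest w[1118] one. Whole bodies lay between 7.43 and 8.44 on all 12 arrays, with means lower in lol by 0.42 log2 in females and 0.38 in males. The strains did not overlap in female bodies either. The lowest decile of transcripts in w[1118] female bodies ended at 8.32 and in male bodies at 8.35, so this transcript was near the bottom of the scale in bodies of both strains. Of the 33 lower transcripts, 2 lay in that lowest decile in w[1118] female bodies and 4 in male bodies, and of the 27 higher ones 8 and 12 did.

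Among the higher transcripts, FBtr0088028 of rank 2 led. It stood at 9.87, 10.18 and 10.36 in w[1118] female heads and at 12.33, 12.26 and 11.28 in those of lol. In male heads the values were 9.70, 9.93 and 10.09 against 11.89, 11.37 and 12.31. The strains were separated in both, 3.53-fold in females and 3.86-fold in males, while the lol arrays spread more widely than the control arrays. Whole bodies differed by 0.47 log2 in females, just under the limit of the rule, and by -0.13 in males.

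FBtr0087921, rank 3, went from a low level in w[1118] heads to a middling one in lol. It stood at 8.40, 8.60 and 8.41 in w[1118] female heads and at 9.72, 9.89 and 11.23 in lol, and at 7.98, 7.95 and 8.86 in w[1118] male heads and 9.56, 10.98 and 10.10 in lol. Every lol head array lay above every w[1118] one of the same sex, but the lol arrays differed among themselves by over 1 log2. In whole bodies it lay between 7.53 and 8.54. The fifth-ranked transcript had a like profile, with 7.92 ± 0.67 in w[1118] and 9.51 ± 0.24 in lol female heads, 7.58 ± 0.29 and 10.19 ± 0.62 in male heads (SD, n = 3), and body means of 7.27 to 7.87.

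**Figure D2:**
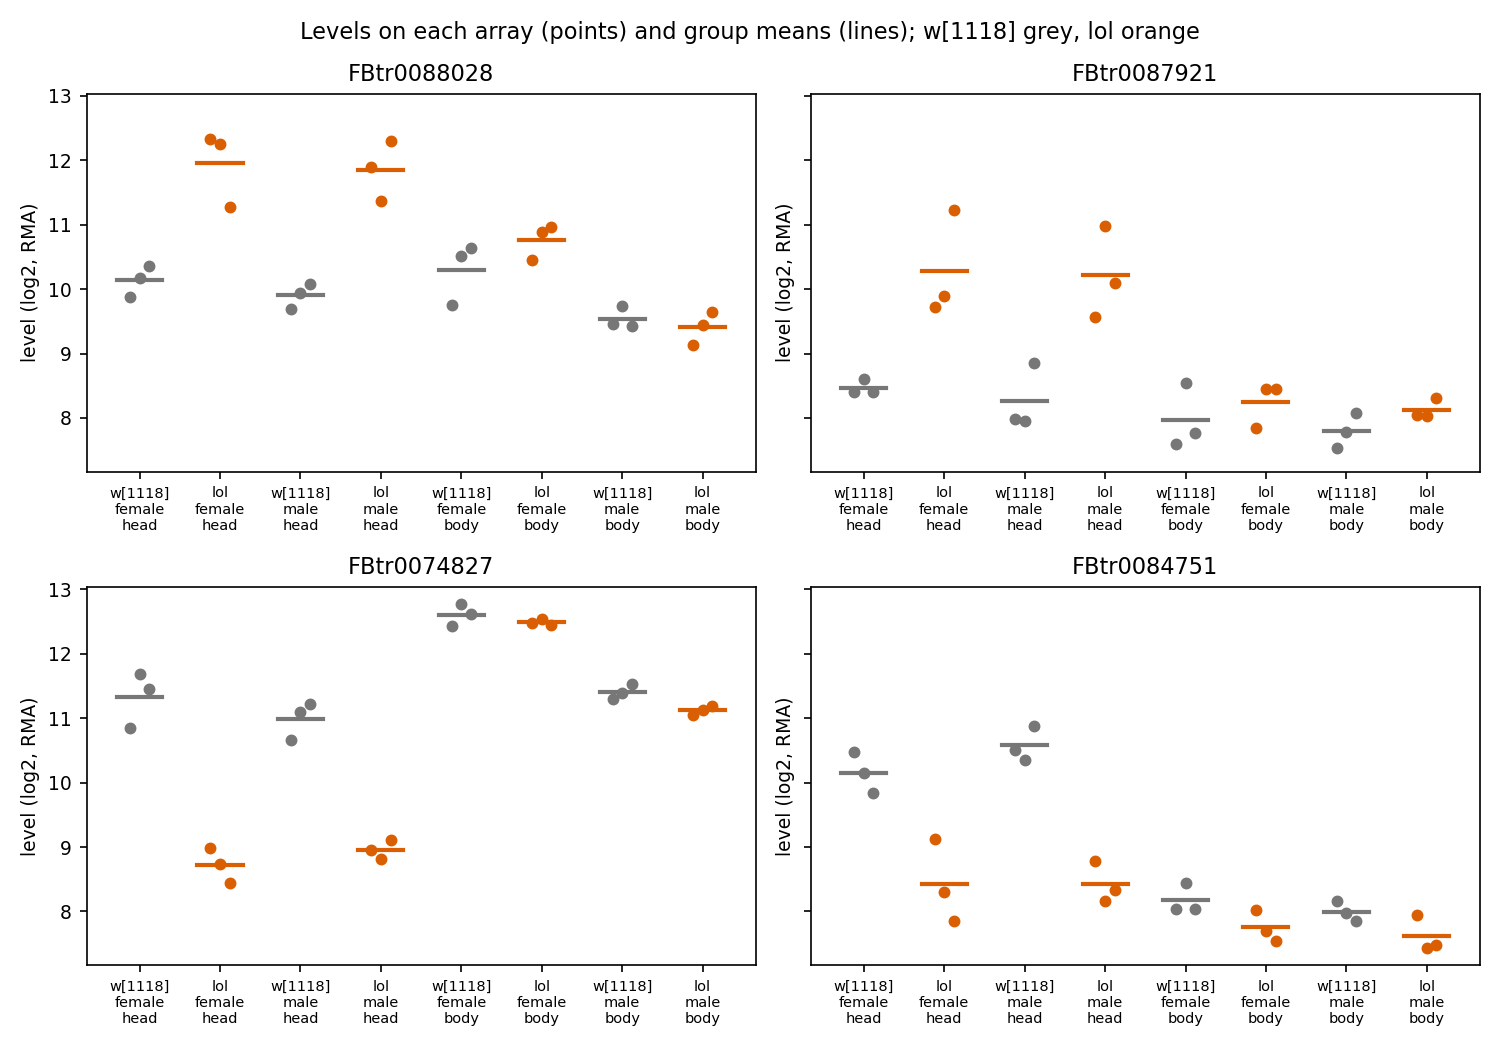
Levels (log2) of the 2 highest ranked transcripts in each direction on all 24 arrays, with a line at the mean of each group of 3. The head arrays of w[1118] (grey) and lol (orange) are separated for all 4 transcripts. In bodies the strains lie close together within each sex, yet without overlap for FBtr0074827 in males and FBtr0084751 in females.

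How well the strains were separated varied down the list. In 37 of the 60 the lol and w[1118] arrays overlapped in heads of neither sex, against 7.09% of all transcripts with separation in the same direction in both heads. In 46 they did not overlap in female heads (17.9% of all transcripts) and in 42 in male heads (15%). In 9 members they overlapped in heads of both sexes, all of them from rank 28 on. In whole bodies, where the rule asked for small differences, 11 members had no overlap in females and 13 in males, against 25.5% and 28.6% of all transcripts. In a limma fit over all transcripts 33 of the 60 (14 higher and 19 lower) passed an adjusted p of 0.05 in female heads, where 3.63% of all did (1.9% higher and 1.72% lower). In male heads 37 passed (15 higher and 22 lower), where 4.68% of all did (2.37% higher and 2.31% lower). Both passed in the same direction for 29 members (11 higher and 18 lower) against 2.61% of all (1.28% and 1.33%). The rule chose on these same differences, so the counts describe the list and test nothing. They were 13 and 18 when the fit held the head arrays alone. For this and the following fits the share of all transcripts is not given, so the counts cannot be set against it. Without the 4 arrays that stood apart, 21 passed in male heads, and 24 did without lol male head replicate 3.

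The rule asked for the same sign in heads of both sexes and ranked by the smaller difference, so it favoured agreement between the sexes. For 30 of the 60 the head differences of the 2 sexes lay within 0.25 log2 of each other, and for 36 the larger one was in males. In 10 members they were over 0.5 log2 apart, 6 with the larger difference in males and 4 in females. A test of this difference between the sexes passed for 0 members and for 0 of the 13873 transcripts (limma), while 2 members and 251 transcripts had an unadjusted p under 0.05. The transcript of rank 22 showed the widest gap, at 2.50 log2 in females and 1.09 in males. Its w[1118] male heads stood at 10.56, 12.08 and 7.55, a spread that no other group of this transcript had, and the pair of high values came from arrays that stood apart. Its w[1118] male body level was 13.90 ± 0.13 (SD, n = 3).

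A test of head against body was passed by a minority. The lol effect, the difference between lol and w[1118], was called different between head and whole body in females for 6 of the 60, 2 higher and 4 lower in heads (0.375% of all transcripts, 0.231% and 0.144%). In males it was for 9, 5 higher and 4 lower (0.432% of all, 0.245% and 0.187%), which makes 12 members in at least 1 sex (0.699%). In both sexes it was for 3, those of rank 1, 16 and 23, of which the first was lower (0.108% of all, 0.0649% higher and 0.0432% lower). Since the rule asked for large head and small body differences, these counts are a description too. Single arrays moved the counts by over 1.5 times, from 1 to 8 in females and from 2 to 11 in males. For the other 48 the difference between tissues did not pass, and that they differ in heads rather than bodies rests on the size limits of the rule. In whole bodies 21 of the 27 higher members were above 0 in females and 24 in males. Of the 33 lower ones, 11 and 15 were above 0.

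The sixteenth-ranked transcript differed in bodies too. In heads it went from 11.92 ± 0.02 to 13.22 ± 0.17 in females and from 11.94 ± 0.16 to 13.17 ± 0.07 in males (SD, n = 3). In bodies lol was higher as well, at 12.58 ± 0.22 against 12.14 ± 0.07 in females and at 12.26 ± 0.05 against 11.81 ± 0.05 in males. It was the single member that passed in female bodies (4.87% of all transcripts passed, 2.57% higher and 2.3% lower) and the single one in male bodies (8.65%, 2.89% higher and 5.76% lower). Without w[1118] female body replicate 1 or 2 or lol female body replicate 2 or 3, none passed in female bodies, and without w[1118] male body replicate 1 none did in male bodies. Without replicate 3 of w[1118], 2 members passed in bodies of the sex concerned. The limit of 0.5 log2 lets such small differences through: 18 members had a body difference of at least 0.4 log2 in one sex or the other, and 20 stayed under 0.25 in both. Conversely, 389 transcripts had head differences at least as large as the last member, and the limit removed 329 of them, 19 with a larger body difference of 0.5 to 0.6 log2. In 212 of the 389 both bodies differed in the direction of the heads by at least 0.5 log2.

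The level of heads against that of bodies differed with the strain in which it was read. In w[1118] the median difference of heads from bodies was 0.10 log2 in females and 0.22 in males for the 27 higher members, against 0.00 and 0.16 for all transcripts. For the 33 lower members it was 0.55 and -0.45. In lol it was 1.07 and 1.01 for the higher and -0.52 and -1.63 for the lower members, against 0.00 and 0.25 for all transcripts. Heads were above bodies for 16 and 17 of the higher members in w[1118] females and males, and for 24 and 21 in lol. For the lower members they were for 24 and 14 in w[1118] and for 11 and 12 in lol. The rule used the head values of both strains, so these are descriptions. The shift from one strain to the other is the difference that chose the list.

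With the strains averaged, a limma fit called heads above bodies for 17 of the 27 higher members in females and 16 in males, and below for 4 and 6. For the 33 lower members it called 10 above and 7 below in females and 12 above and 20 below in males. Among all transcripts 50.5% were called in females (25.8% above and 24.7% below) and 70.6% in males (43.7% above and 26.9% below). In both sexes alike, 14 higher and 7 lower members were above bodies and 3 and 6 below (34.7% of all transcripts, 22.3% above and 12.4% below). By at least 2 log2, 12 members were below bodies in males, 11 of them lower in lol heads (12.6% of all), and 4 in females (3.84%). As far above bodies were 1 in males (4.12%) and 2 in females (1.52%). The average mixes the lol and w[1118] head values, whose difference the rule chose on, so nothing is read from these counts. The fifth-ranked transcript was 0.05 log2 above bodies in w[1118] females and 1.74 in lol females.

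By the smaller average of the 2 sexes, FBtr0080322 of rank 31, higher in lol heads, stood furthest above bodies. Its head arrays lay between 9.15 and 11.17 and its body arrays between 7.68 and 8.33. In w[1118] heads exceeded bodies by 1.63 log2 in females and 1.68 in males, and in lol by 2.46 and 2.35. Within heads, w[1118] stood at 9.72 ± 0.23 and lol at 10.77 ± 0.40 in females, and at 9.38 ± 0.40 and 10.31 ± 0.42 in males (SD, n = 3). FBtr0075803 of rank 6, the next by that average, exceeded bodies by only 0.90 and 0.79 in w[1118], and by 2.02 and 2.62 in lol. It stood at 8.81 ± 0.34 in w[1118] and 10.35 ± 0.36 in lol female heads, and at 8.41 ± 0.63 and 10.56 ± 0.54 in male heads (SD, n = 3). In w[1118] alone some lower members were further above bodies than either. These were FBtr0084751, at 1.99 in females and 2.58 in males, rank 38, at 1.82 and 1.81, and rank 55, at 1.64 and 2.01.

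By the same average, the members furthest below bodies were lower in lol heads. FBtr0083658 of rank 7 was at 12.60 to 13.18 in female bodies and 11.24 to 11.83 in male bodies, and the difference of heads from bodies was -2.96 log2 in females and -1.69 in males in w[1118], and -4.78 and -3.66 in lol. Its w[1118] female heads stood at 9.27, 10.31 and 9.83 and those of lol at 9.86, 7.31 and 7.62. The first lol array is among the 4 that stood apart, and it overlaps the controls, while the other pair lies well under them. In male heads w[1118] stood at 9.35, 10.26 and 10.17 and lol at 7.79, 7.57 and 8.67, without overlap. FBtr0080275 of rank 18 was near the top of the scale in bodies, at 15.38 ± 0.06 in w[1118] and 15.04 ± 0.08 in lol females (SD, n = 3). The difference of heads from bodies was -1.99 in females and -1.53 in males in w[1118], and -2.78 and -2.35 in lol. In heads it stood at 13.39 ± 0.40 in w[1118] and 12.26 ± 0.09 in lol females, and at 13.85 ± 0.72 and 12.71 ± 0.56 in males, where the strains overlapped (SD, n = 3).

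**Figure D3:**
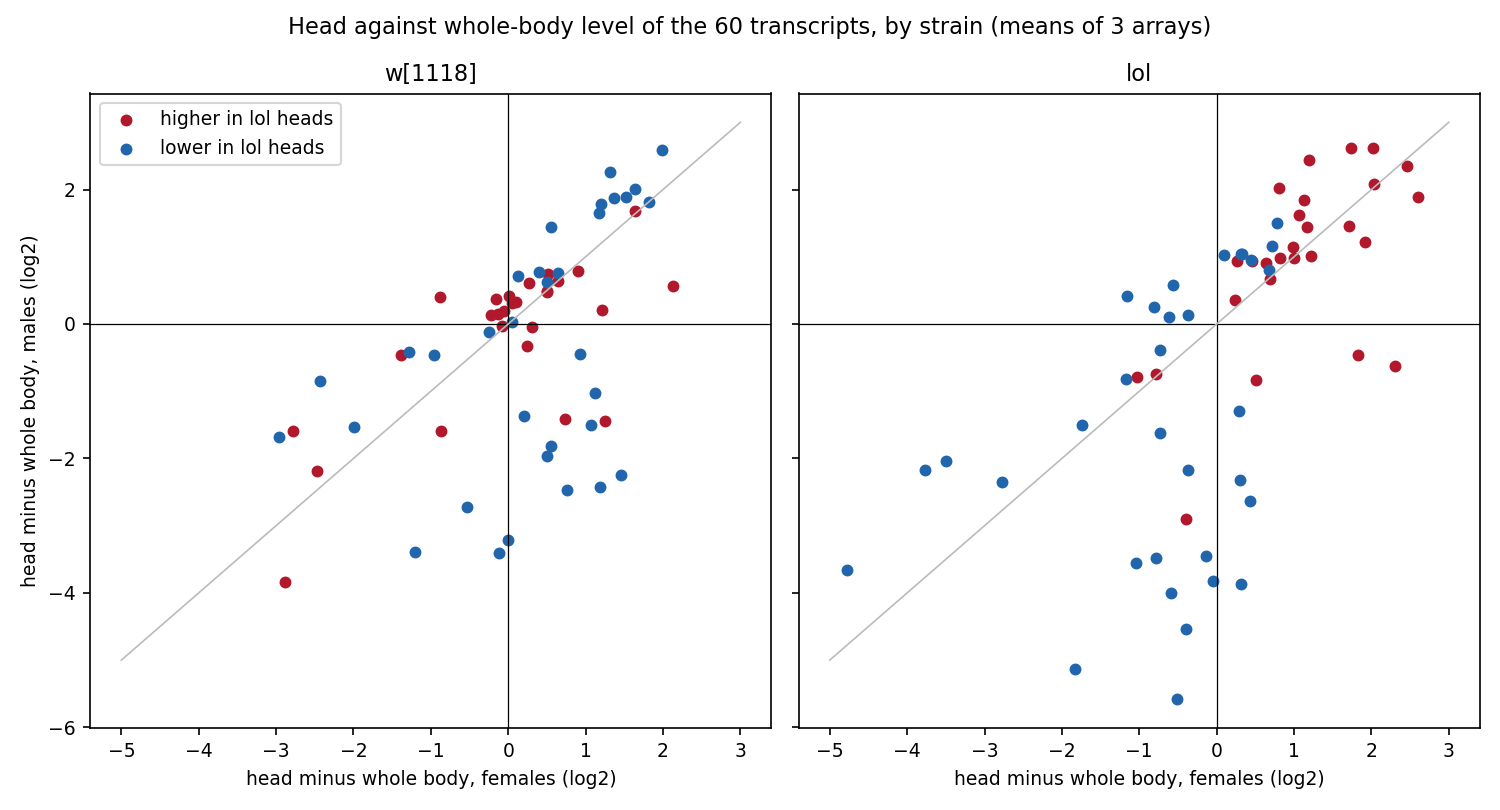
Head minus whole-body level (log2, means of 3 arrays) of the 60 transcripts in females (horizontal) and males (vertical), in w[1118] (left) and lol (right), with a grey line where the sexes are equal. Heads of females were above bodies for 16 of the 27 higher members (red) in w[1118] and for 24 in lol, and for 24 and 11 of the 33 lower members (blue).

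Some higher members were below bodies in both strains. The ninth-ranked transcript stood at 10.39, 10.65 and 11.36 in w[1118] female heads against 12.31, 12.60 and 11.76 in lol, and at 11.08, 10.17 and 11.19 against 12.13, 12.71 and 12.69 in male heads. Its bodies had means of 13.00 to 13.26, so the lol heads were closer to the level of bodies than the control heads were. The transcript of rank 45 was similar, at 12.72, 12.43 and 13.00 in w[1118] and 14.82, 14.62 and 13.93 in lol female heads with body means of 15.24 to 15.49. In male heads its w[1118] arrays stood at 14.15, 14.32 and 12.48, the first pair on arrays that stood apart, and those of lol at 14.59, 14.62 and 14.19. There the strains overlapped.

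Differences between the sexes, averaged over the strains, were rare in heads. FBtr0085532 of rank 32 was the only member that passed there (0.382% of all transcripts, 0.252% above in females and 0.13% in males), with females above males by 1.22 ± 0.20 (SE) log2 (adjusted p = 0.00602, limma). It stood at 9.58, 9.89 and 9.19 in w[1118] and 10.17, 10.13 and 11.14 in lol female heads, and at 8.16, 8.05 and 8.12 in w[1118] and 9.02, 10.02 and 9.44 in lol male heads. The difference was 1.17 without the 4 arrays that stood apart (adjusted p = 0.157) and 1.22 with head arrays alone (adjusted p = 0.138), so the call was lost while the size hardly moved. The count was 9 without w[1118] male head replicate 3. In whole bodies a sex difference was called for 39 members, with 19 above in females and 20 in males (68% of all transcripts, 51% higher in females and 17% in males). By at least 2 log2, 15 were higher in males (10.8% of all) and 0 in females (0.815%). Of these 15, 12 were lower in lol heads.

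Those 12 lower transcripts were high in male bodies and lower in the other tissues. Their group means lay between 10.94 and 14.74 in w[1118] male bodies and between 8.60 and 10.62 in w[1118] female bodies. In female heads their median level was 9.70, 9.63 and 9.89 on the w[1118] arrays and 8.66, 8.51 and 8.41 on those of lol, so the 2 strains, whose difference chose the members, were apart in the median on every array. A set of 1440 transcripts at least 2 log2 higher in male than in female w[1118] bodies (the 12 among them) stood at 8.42 to 8.60 on the same w[1118] and at 8.41 to 8.44 on the lol female head arrays. For 7 of the 12 the strains did not overlap there (17.9% of all transcripts).

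In male heads the 12 moved with the arrays that stood apart. Their median was 10.13, 10.77 and 9.82 in w[1118] and 9.95, 8.65 and 8.61 in lol. The male-body-biased set stood at 9.87, 10.67 and 8.40 and at 10.16, 8.40 and 8.47 on the same arrays. On the 3 male head arrays where the set was low, the 12 stood at 9.82 in w[1118] replicate 3 and at 8.65 and 8.61 in lol replicates 2 and 3. The 59th-ranked transcript, 1 of the 12, shows the extreme: 11.19, 12.03 and 8.16 in w[1118] and 11.36, 7.39 and 7.57 in lol male heads, with 13.87 ± 0.13 in w[1118] male bodies (SD, n = 3). Without the 4 arrays the median difference of the 12 was -1.07 in female and -0.89 in male heads, against -0.96 and -1.08 with them, and all 12 kept their sign in both. That leaves 1 w[1118] male head array. The rule had chosen the 12 on the remaining arrays too, so the kept signs describe the list and test nothing.

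In male heads the medians of the other 21 lower transcripts and of the 27 higher ones were not raised on these arrays, though single members were, such as ranks 18, 22 and 45. Of the 21, which the rule chose on these differences, 20 had no overlap in female heads (17.9% of all transcripts) and 20 in male heads (15%). Their median difference was -1.13 in female and -1.14 in male heads, and -1.10 and -1.41 without the 4 arrays. That of the higher members was 1.05 and 1.16, and 1.05 and 1.18 without them. Here too the rule had used the arrays that remain. On the arrays that stood apart the higher members were lower than on their fellow arrays in male heads, at 8.88 and 8.72 against 9.62 in w[1118] and at 10.03 against 10.68 and 10.60 in lol. The part of trunk RNA in any of these differences was not tested.

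**Figure D4:**
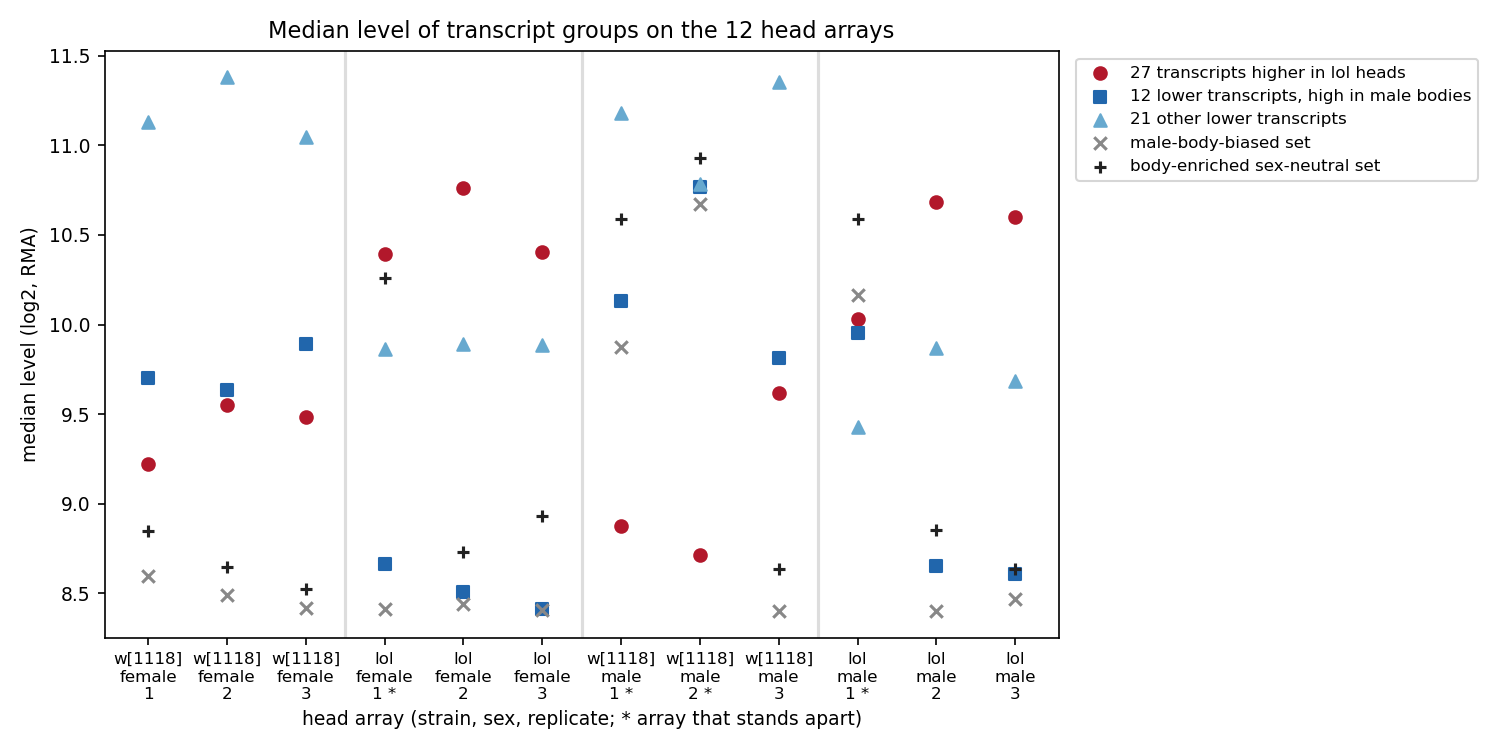
Median level (log2) of the higher members, of the 12 lower members high in male bodies, of the other 21 lower members and of the body sets on each of the 12 head arrays. On the 4 arrays marked with an asterisk the body-enriched set lies at 10.26 to 10.93, and in male heads the 12 lower transcripts (dark blue squares) are high on the same arrays.

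Because the list was picked for its differences, the same rule was applied to 2 of the 3 replicate numbers and the 60 transcripts it then took were looked up on the arrays left out. In female heads the median difference, turned so that the direction of the choice is positive, was 1.12 log2 on the arrays used and 1.01 on those left out when replicate 1 was set aside. It was 1.05 and 1.17 for replicate 2. For replicate 3 it was 1.11 on the arrays used and 0.08 on those left out, where 36 of 60 had the same sign, against 54.6% of the transcripts whose heads shared a sign. Here the lol array stood 0.41 closer to the controls and the w[1118] array 0.33 closer to lol than the arrays that had chosen the list. In male heads the medians on the arrays left out were 0.63, 0.83 and 0.73, against 1.11, 1.03 and 1.21 on the arrays used. With replicate 1 set aside, the lol male head array stood 0.51 closer to the controls. With replicate 3 set aside, the w[1118] male head array stood 0.90 closer to lol and the lol array 0.45 further from the controls. That list had been chosen with all 4 head arrays that stood apart, in lol female heads as well as in male heads of both strains.

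The sign held in heads of both sexes for 46, 39 and 29 of the 60 on the arrays left out (49.6%, 50.3% and 35.6% of the transcripts whose heads shared a sign). Those transcripts were not picked for the size of their difference, so their percentages are no matched background. In bodies the medians on the arrays left out were 0.04 to 0.32 in females and 0.12 to 0.27 in males. Of the original 60, 35, 33 and 28 were taken again, so the values on arrays left out describe lists that hold only part of the original members. With single arrays left out, 44 to 58 were taken again, and 8 of the 60 (1 higher and 7 lower) whichever array was removed.

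**Figure D5:**
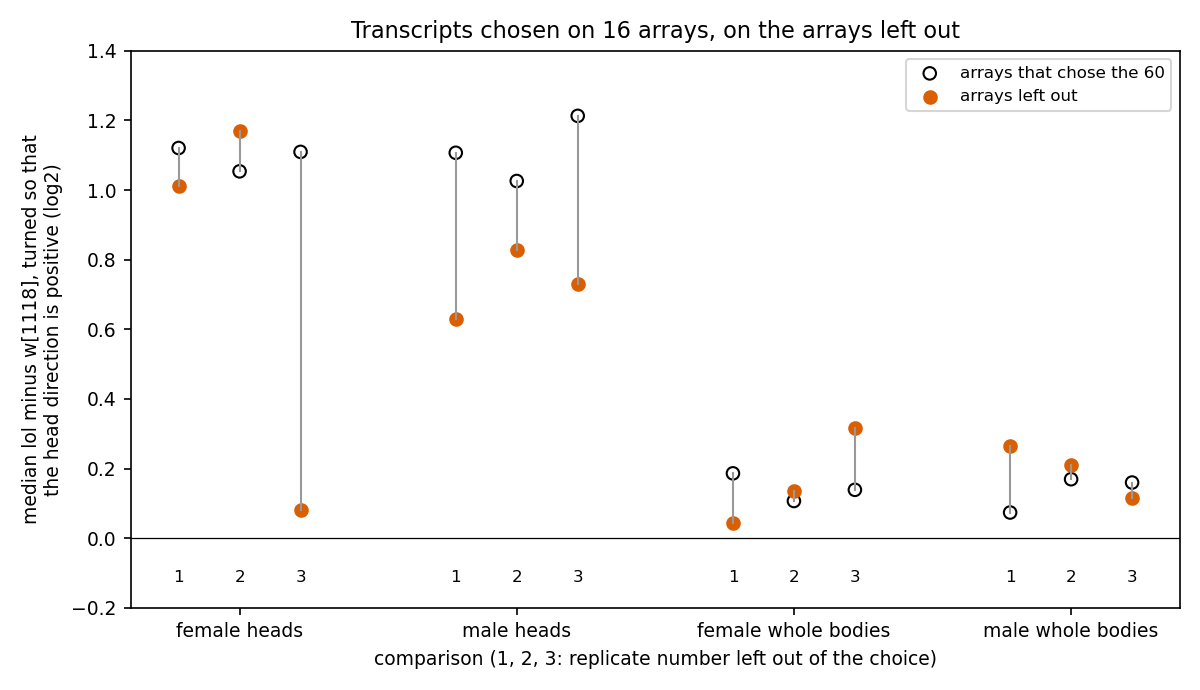
Median difference between lol and w[1118] (log2, turned to the direction in heads) of the 60 transcripts chosen without replicate number 1, 2 or 3, on the arrays that chose them (open circles) and on the arrays left out (orange). Head medians stay between 0.63 and 1.17 on the arrays left out, except for 0.08 in female heads when replicate 3 was set aside.

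Many members had a low level, though 3 had a mean over 15 in some group. Their median spread was wider than that of all transcripts, and the rule ranked by mean differences without regard to spread. Over all arrays, 31 of the 60 lay under 10.03, the lower quartile of all transcripts, and 10 above their median of 12.02. The 27 higher members had a median level of 9.25 and the 33 lower ones of 10.20. The median SD between replicates in heads was 0.317 to 0.424 for the 60 and 0.177 to 0.255 for all transcripts. In bodies it was 0.20 to 0.246 and 0.164 to 0.208. The levels are array signals, which differ between probes, and are no amounts of RNA.

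A total of 2 pairs of members carried consecutive ID numbers. The pair of ranks 10 and 11 correlated at 0.986 over the 24 arrays (Pearson's r, which the 8 groups and the shared arrays shape) and had close differences in both heads. Both are among the 12 high in male bodies. In the other pair, FBtr0088028 was the leading higher transcript and its neighbour of rank 25 was lower in lol heads, at a difference of -1.06 log2 in females and -1.09 in males. Their correlation over the arrays was 0.152. Whether either pair comes from 1 gene or shares probes is not given in the files, so such pairs may not be independent members.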

How the data were processed

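Log2 expression values, 1 per transcript, were deposited by the authors from one-colour NimbleGen arrays (8 probes per transcript, per the labels), made with RMA, per the submitters' processing notes. RMA corrects the background, quantile normalizes between arrays and summarises probes. Neither its version nor the group of arrays normalized together is stated in the labels used here, and base 2 was read from the range of values (6.61 to 15.92). Of 15595 rows, 1722 without any value were left out. The number of arrays limits the precision, and array medians lay between 12.1 and 12.25.

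From these values the rule was applied and a limma model (version 3.58.1, R 4.3.3) with 8 group means was fitted to all 24 arrays. P-values were adjusted by Benjamini-Hochberg over 13873 transcripts within a comparison, and those under 0.05 were called. The fit and the rule were tested on simulated data. The members, lists and most alternatives were chosen with earlier results of these data known. The test between the sexes in heads and the head minus body values within each strain were added after the values were seen. The comparison of heads with bodies averaged over strains holds head values that the rule used and is given as a description. By rule, IDs were given for the 2 highest ranked members per direction, the 2 furthest above and below bodies in the average of both strains, and those called between the sexes in heads. Alternatives were fewer arrays in the fit, a robust prior with an intensity trend, a repeated quantile normalization, centring on medians, a replicate block, the lowest 25% of transcripts dropped, arrays left out, and other limits for the rule. SDs are over 3 arrays, and SEs come from the limma fit.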

Additional observations from a re-analysis of the deposited data

Results flagged for a closer look

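The difference between lol and w[1118] was itself tested between head and whole body, and 6 members passed in females and 9 in males (limma, adjusted over all transcripts). The rule favoured such a difference, so these results describe the list. Of the transcripts given by ID, FBtr0074827 passed in both sexes, with an effect in heads of -2.48 log2 relative to bodies in females and -1.76 in males. FBtr0088028 passed in males at 2.08, and FBtr0084751 passed in males at -1.78. The calls of FBtr0074827 held in every alternative fit that was run. That of FBtr0088028 was lost in 8 of 31 alternatives and that of FBtr0084751 in 21 of 30, among them median centring (adjusted p = 0.0607).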

How the results depend on the processing

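Counts of called members depended most on the arrays in the fit and on how many members were tested. The share of all transcripts called in each alternative is not given here. These counts therefore do not tell a change in the members from a change in the whole fit. With the arrays of the tissue or sex compared alone, 13 members passed in female heads, 18 in male heads, 0 in female bodies, 2 in male bodies, 3 in the head against body difference of the lol effect in males and 0 between the sexes in heads. With the lowest 25% of transcripts dropped, 29 of the 60 were tested, and 19 passed in female heads, 19 in male heads, 4 in the tissue difference of the lol effect in males, 19 and 27 in head against body in females and males, and 0 and 23 between the sexes in heads and bodies. Without the 4 head arrays 21 passed in male heads, 5 in the tissue difference of the lol effect in males and 0 between the sexes in heads, and the intensity trend with a robust prior gave 5 in that tissue difference. Without any one array, counts ran from 24 to 36 in female heads, 24 to 44 in male heads, 0 to 2 in female and in male bodies, 30 to 39 and 51 to 55 in head against body in females and males, and 1 to 9 and 37 to 41 between the sexes in heads and bodies. The tissue difference of the lol effect ran from 1 to 8 in females and from 2 to 11 in males, so its counts hung on many single arrays. In females leaving out any of 9 arrays (the 3 lol bodies, w[1118] body replicates 1 and 3, w[1118] head replicates 1 and 2 and lol head replicates 2 and 3) brought the count to 3 or fewer. In males leaving out any of w[1118] body replicate 2, lol body replicates 1 and 2, w[1118] head replicate 2 and lol head replicate 3 brought it to 2. The rule took 20 of the 60 again with a body limit of 0.25 log2, 26 with a limit of 1, 29 with the lowest 25% dropped, 37 without the 4 head arrays, and 28 to 58 with replicates left out. Same-numbered arrays deviated together in part but not throughout (correlations of -0.594 to 0.67, over 0.1 in 21 of 36 pairs, and 15 of 24 arrays closest to their own number in the other strain). These values do not settle whether the numbers pair samples, and the main fit did not use them as pairs. With a replicate block, 36 and 40 members passed in female and male heads, 1 in bodies of each sex, 6 and 6 in the tissue difference of the lol effect, 40 and 55 in head against body, and 1 and 40 between the sexes. Quantile normalization again and centring moved the median difference of all transcripts by at most 0.022 log2, and no difference of a transcript given by ID changed sign in any alternative.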
